A study of Arabidopsis thaliana with 45 samples.

Results

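The comparison described here set seeds imbibed in potassium nitrate (KNO3) against seeds imbibed in water in the 2 Arabidopsis genotypes labelled myb and qko. All libraries carrying those genotype and treatment labels were taken, 11 of the 45 in the series: 2 of myb in KNO3, 3 of qko in KNO3, 3 of myb in water and 3 of qko in water. The labels give myb as a mutant of MYB28 and MYB29, and qko as a mutant of CYP79B2, CYP79B3, MYB28 and MYB29, both in the Col0 ecotype. RNA came from entire seeds after 6 h in 10 mM KNO3 or after 6 h in water. Both genotypes and both treatments therefore share the loss of MYB28 and MYB29 by label. The series also holds wild type (WT) seeds, a mutant of CYP79B2 and CYP79B3 (cyp), dry seeds and seeds kept for 6 h in 8 µM KSCN, and some of these groups are used below to set the KNO3 values in context. The water libraries carried no matched potassium salt, so nitrate and potassium cannot be told apart in any KNO3 against water value. Whether replicates were separate plants or seed lots is not in the labels, and the p-values then measure only a spread between libraries that may be technical.

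Nitrate is both a nitrogen source and a signal for seeds, and it is known to promote the germination of dormant Arabidopsis seeds. In the textbook pathway, NPF6.3 and the NRT2 transporters bring nitrate in, NLP transcription factors respond to it, and the genes for nitrate reductase, nitrite reductase and the enzymes that feed them with electrons and cofactors are switched on within minutes to hours. NLP8 is the NLP factor tied to germination, acting in part through CYP707A2, which breaks down the dormancy hormone abscisic acid. MYB28 and MYB29 activate genes of aliphatic glucosinolate synthesis, and CYP79B2 and CYP79B3 make the precursor of the indolic ones.

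The unblocked test called no locus different between KNO3 and water seeds of myb and qko, and a fit that paired libraries by replicate number called a few. Of 16801 loci with enough counts to be tested, 0 (0%) rose or fell under edgeR's quasi-likelihood test with Benjamini-Hochberg adjustment at 0.05, in a single fit over all 11 libraries with genotype as a term. At an unadjusted p under 0.05 there were 285 loci (1.7%), of which 111 (0.661%) were higher and 174 (1.04%) lower in KNO3. DESeq2 on the same loci called 3 (0.0179%), namely AT2G01008 higher and AT1G66180 and AT5G50760 lower in KNO3, and their values are given below. With the replicate number as a block, edgeR called 7 loci (0.0417%), of which AT2G01008, AT2G07751 and AT2G16660 were higher and AT1G66180, AT3G22910, AT4G35985 and AT5G50760 lower in KNO3. With a block for qko alone it called 5 of these (0.0298%), without AT3G22910 and AT4G35985. That fit was chosen after seeing the data, where qko met the pairing rule given under processing. None of the 7 is in a nitrate list. The p-values of the unblocked fit ran high. With no effect anywhere, a share of 0.05 of loci would be at an unadjusted p under 0.05, against the 1.7% found. That share was 3.9% with the replicate block and 3.55% without both qko libraries numbered 7. The 0 calls are thus a cautious count and do not show that no locus responded, and the cause was not tested. Most 95% intervals of the unblocked fit were narrow. For 13485 loci (80.3%) the 95% interval of the fold change lay within 1.5-fold either way, and for 15810 (94.1%) within 2-fold either way.

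The libraries themselves differed far more by genotype and by replicate than by treatment. Library totals were 18097331 counts for qko KNO3 replicate 7, 21363761 for qko water replicate 7, and 22230687 to 22596149 for the other 9. The first principal component of the tested loci held 40.6% of the variance and separated myb from qko, and the second held 28.2%. Along each of them both qko libraries numbered 7 stood apart from the other qko libraries. Those 2 libraries also held a larger share of counts on mitochondrial loci, 0.282% in KNO3 and 0.17% in water, against 0.0663% to 0.0878% in the other 9. Their summed level of the 8 listed seed coat genes was 8.79 counts per 1000000 counts of the library (CPM) in KNO3 and 5.85 CPM in water, against 2.1 to 4.63 CPM in the other 9. In the bulk RNA of entire seeds, fewer cells of a type and less RNA per cell cannot be told apart. The part of these differences in any result was not tested. Without both of them 0 of 16616 loci passed the same test, with 590 (3.55%) at an unadjusted p under 0.05.

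**Figure D1:**
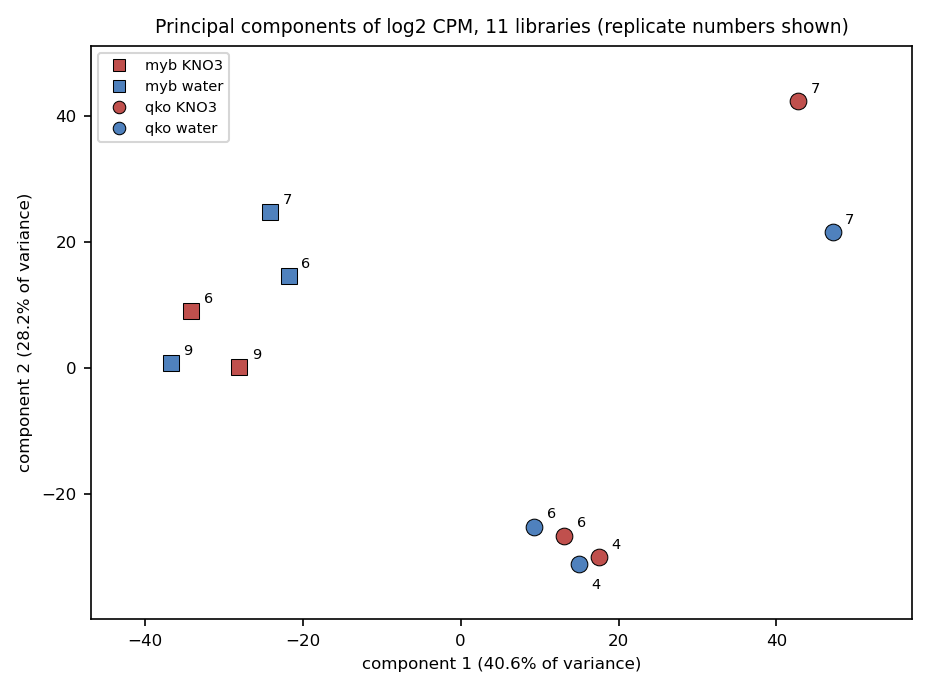
Position of the 11 libraries on the first and second principal components of log2 CPM over the tested loci, with colour for treatment and marker for genotype. The genotypes separate along the first component. The qko libraries numbered 7 stand apart from the other qko libraries along both components. They also differ from each other along the second (21.54 in water, 42.41 in KNO3). The KNO3 and water libraries of myb lie among each other, as do those of qko replicates 4 and 6.

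The seed label and the mutant labels were checked on the counts. The 12 storage protein and oil body genes summed to 46383 to 74074 CPM over the 11 libraries, and no member of that list passed the test between KNO3 and water. The targeted genes checked the labels poorly at this depth. MYB28 had 0 counts in all 45 libraries, WT included, which allows up to 0.166 CPM in the shallowest of the 11 libraries compared here (3 counts, counting error only). MYB29 had 2 and 4 counts in myb KNO3 libraries and 2, 5 and 14 in qko KNO3 libraries, against 4, 5 and 6 in myb water libraries and 1, 2 and 3 in qko water libraries, while the WT and cyp libraries of both treatments had 0. CYP79B3 had 21, 19 and 14 counts in KNO3 libraries labelled qko and 13, 22 and 24 in water libraries labelled qko, so its transcript was present there, against 10 and 4 in myb KNO3 and 14, 7 and 5 in myb water. Its mean was 0.855 CPM in qko KNO3 and 0.897 CPM in qko water, against 0.118 CPM in WT KNO3 and 0.192 CPM in WT water. CYP79B2 had 5, 0 and 0 counts in qko KNO3 and 0 in each qko water library. The names myb and qko below mean the libraries labelled so.

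Nitrate reduction was the part of the pathway in which every listed gene could be measured, and none of its 24 genes passed the test. Their median log2 fold change was 0.01 against 0.00 over all tested loci, 0 were at an unadjusted p under 0.05 in either direction, and all 24 intervals lay within 2-fold (21 within 1.5-fold). UPM1, which makes the siroheme precursor that nitrite reductase carries, had 199.6 and 194 CPM in myb KNO3 libraries, against 189.8, 192 and 203 CPM in myb water libraries. In qko it had 216, 225 and 192 CPM in KNO3, against 225, 219 and 196 CPM in water. The 2 treatments overlapped in both genotypes, and the log2 fold change was -0.01 (95% interval -0.16 to 0.15).

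RFNR1, the root-type ferredoxin-NADP reductase that supplies electrons for nitrite reduction, had 262 and 242 CPM in myb KNO3 libraries, against 264, 283 and 238 CPM in myb water libraries. The qko libraries had 232, 238 and 225 CPM in KNO3, against 225, 224 and 207 CPM in water. The qko libraries of KNO3 were just above those of water and the myb libraries overlapped, with a pooled log2 fold change of 0.02 (-0.16 to 0.19). NIR1, the nitrite reductase, had 235 and 232 CPM in myb KNO3, against 248, 253 and 219 CPM in myb water. In qko it had 291, 321 and 190.9 CPM in KNO3, against 329, 265 and 146 CPM in water. The lowest value in each qko treatment was replicate 7, the groups overlapped in both genotypes, and the log2 fold change was 0.05 (-0.36 to 0.45).

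NIA1, one of the 2 nitrate reductases, had 99.1 and 121 CPM in myb KNO3, against 98.0, 96.7 and 92.2 CPM in myb water. The qko libraries had 183, 209 and 95 CPM in KNO3, against 179.6, 156 and 94.7 CPM in water. The myb libraries of KNO3 lay just above those of water and the qko libraries overlapped, and the pooled log2 fold change of 0.19 had an interval of -0.24 to 0.61. NIA2, the other nitrate reductase, had 14.8 and 13.2 CPM in myb KNO3, against 12.4, 16.1 and 12.4 CPM in myb water. In qko it had 5.42, 8.87 and 2.82 CPM in KNO3, against 9.79, 5.78 and 3.23 CPM in water. Its interval, -0.65 to 0.55 around -0.05, was the widest in the list. The remaining members had pooled log2 fold changes between -0.24 (the hemoglobin HB1) and 0.22 (the glucose-6-phosphate dehydrogenase G6PD3).

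**Figure D2:**
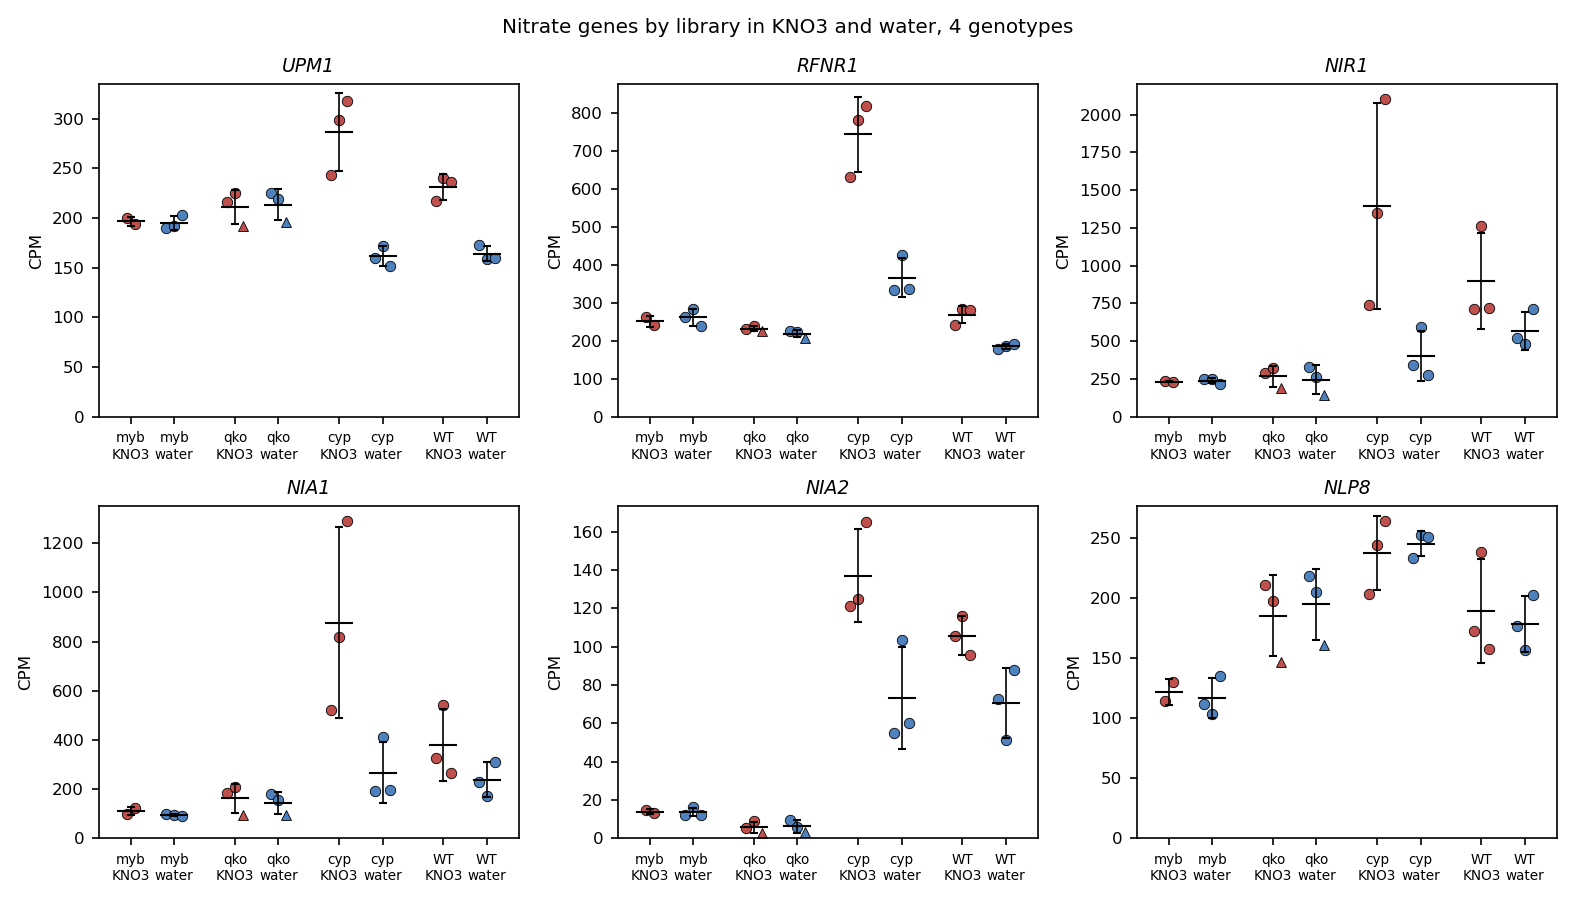
CPM of UPM1, RFNR1, NIR1, NIA1, NIA2 and NLP8 in each KNO3 and water library of myb, qko, cyp and WT, with points for libraries, triangles for qko replicate 7, and bars for the mean ± SD of a group (myb KNO3 n = 2, other groups n = 3). KNO3 stands left of water, and the values of UPM1, NIR1 and NIA2 overlap between treatments in myb and in qko, while those of UPM1 do not in cyp or WT.

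Of 25 listed nitrate transport genes, 13 had enough counts to be tested and 0 passed. At an unadjusted p under 0.05, 3 were higher in KNO3 and 0 lower (23.1% of those tested against 0.661% of all tested loci higher), the list median was 0.04, and 8 of 13 log2 fold changes were above 0. These 3 were NRT2.6, NPF7.3 and SLAH3, all at an adjusted p of 1. With the replicate block 4 of the 13 were at an unadjusted p under 0.05 and 0 passed, against 3.9% of all tested loci unadjusted. Over the transport, reduction and regulator lists together the blocked fit had 9 of 65 genes at an unadjusted p under 0.05. NPF6.3, the dual-affinity nitrate transporter and sensor, had 7.22 and 8.73 CPM in myb KNO3 and 8.55, 11.1 and 4.92 CPM in qko KNO3, against 7.80, 7.3 and 8.41 CPM in myb water and 9.96, 9.32 and 7.35 CPM in qko water. Its treatments overlapped in both genotypes, with a log2 fold change of -0.05 (-0.42 to 0.31). NRT2.7, which loads nitrate into the seed vacuole, averaged 567 ± 56.8 CPM in myb KNO3 (SD, n = 2) and 776 ± 86.8 CPM in qko KNO3 (SD, n = 3), against 575 ± 25.4 CPM in myb water and 804 ± 62.1 CPM in qko water (SD, n = 3 each). The difference of -0.04 on the log2 scale had an interval of -0.24 to 0.17. NRT2.1, the main inducible root transporter, had at most 1 count in a library and was not tested.

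NPF7.3 (NRT1.5), known for loading nitrate into the root xylem, had low levels that did not overlap between treatments in qko. In myb they were nearly tied, with a lowest KNO3 value of 0.45 CPM and a highest water value of 0.447 CPM. It had 0.49 and 0.45 CPM in myb KNO3 and 0.224, 0.358 and 0.442 CPM in qko KNO3, against 0.357, 0.221 and 0.447 CPM in myb water and 0.0894, 0.0896 and 0.14 CPM in qko water. The water values of qko rest on 2 or 3 counts each, and the log2 fold change of 0.92 (SE 0.35) had an unadjusted p of 0.021. SLAH3, an anion channel that releases nitrate, had 3.83 and 5.04 CPM in myb KNO3 and 6.90, 6.76 and 5.30 CPM in qko KNO3, against 2.72, 3.19 and 4.70 CPM in myb water and 5.0, 5.91 and 3.93 CPM in qko water. Its values overlapped in both genotypes, and the log2 fold change was 0.35 (unadjusted p = 0.047).

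Among 32 listed nitrate regulators, 28 were tested and 0 passed, with a median of 0.02 and 21 intervals within 1.5-fold. NLP8 had 114 and 129.7 CPM in myb KNO3 and 211, 197 and 147 CPM in qko KNO3, against 112, 103 and 135 CPM in myb water and 218, 205 and 161 CPM in qko water. The treatments overlapped, and its log2 fold change was -0.01 (-0.26 to 0.24). NLP7, the NLP factor best known as a nitrate sensor, also differed by -0.01 (-0.30 to 0.29). NLP3, a member of the same family, was the list's 1 gene at an unadjusted p under 0.05, with 2.81 and 2.61 CPM in myb KNO3 and 2.6, 2.19 and 2.27 CPM in qko KNO3, against 2.05, 2.74 and 1.66 CPM in myb water and 1.61, 1.16 and 1.59 CPM in qko water. Its qko libraries did not overlap and its myb libraries did, with a log2 fold change of 0.52 (unadjusted p = 0.012). LBD37, a repressor of nitrate genes that nitrate itself is known to induce, differed by 0.34 (-0.02 to 0.70). The qko libraries had 5.42, 7.39 and 7.46 CPM in KNO3, against 4.2, 4.08 and 4.73 CPM in water, without overlap (log2 0.65, unadjusted p = 0.0051, adjusted p = 1), while in myb it had 6.42 and 7.11 CPM in KNO3, against 6.47, 8.32 and 5.54 CPM in water. BT2, a scaffold protein of the BTB and TAZ family, differed by -0.10 (-0.45 to 0.24), with qko libraries lower in KNO3 without overlap and myb libraries overlapping.

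**Figure D3:**
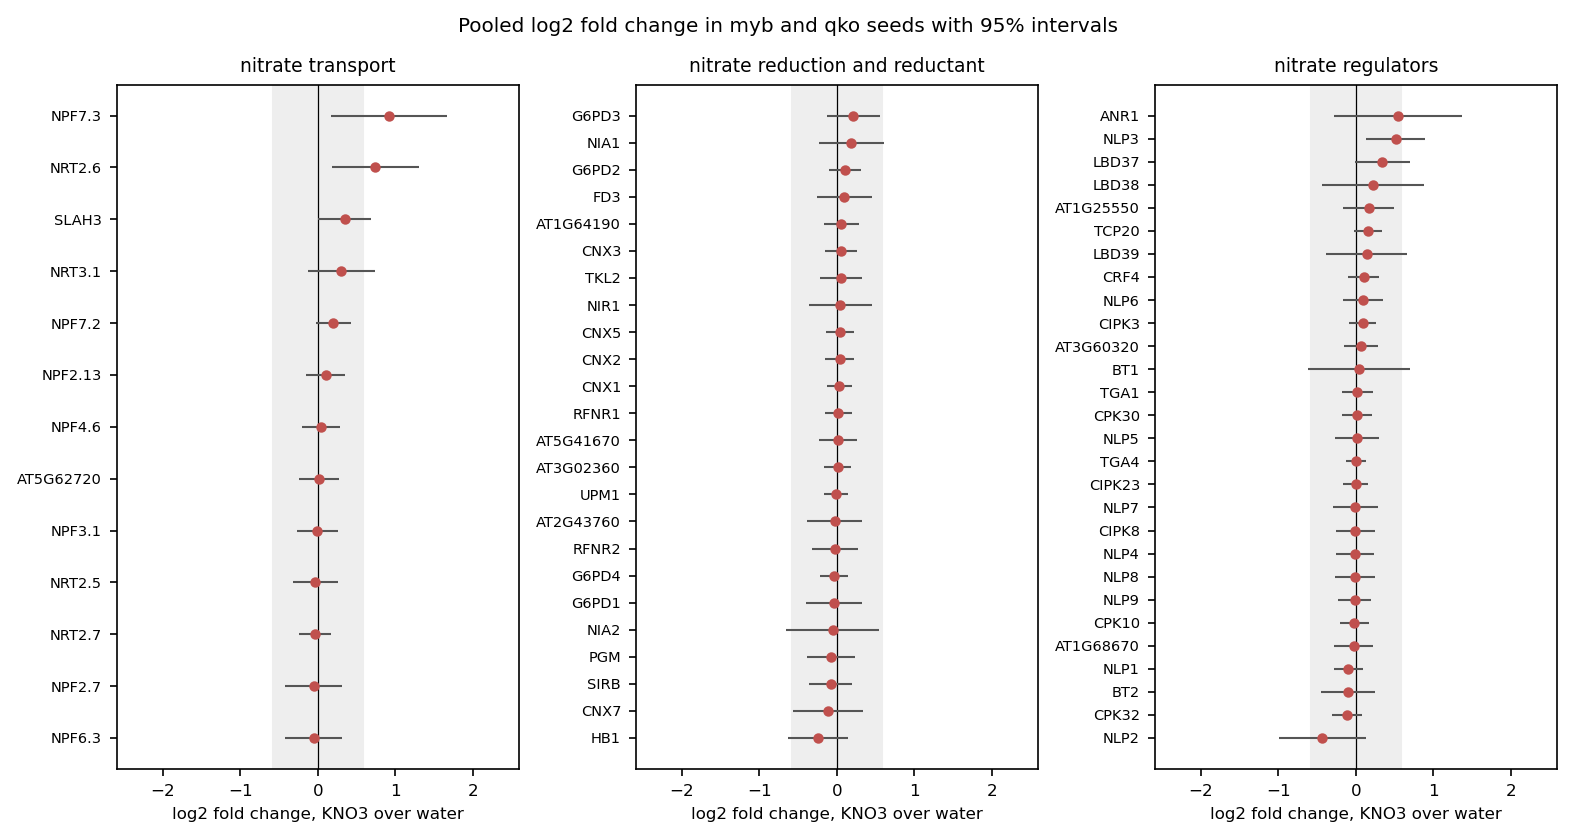
Pooled log2 fold change (KNO3 over water) with 95% interval for the tested genes of the nitrate transport, reduction and regulator lists. The grey band marks 1.5-fold either way. Of 65 intervals, 51 lie inside it and 62 within 2-fold, and those of NPF7.3, NRT2.6 and ANR1 reach further.

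The genes that take up the products of nitrate reduction, and those that carry potassium, gave the same counts of 0. Of 18 ammonium and amide genes, 12 were tested with a median of 0.03. GDH1, a glutamate dehydrogenase, was the 1 member lower at an unadjusted p under 0.05, with 28.7 and 30.4 CPM in myb KNO3 and 21.8, 27.7 and 18.9 CPM in qko KNO3, against 34.1, 30.4 and 32.5 CPM in myb water and 26.8, 30.5 and 26.3 CPM in qko water (log2 -0.22, unadjusted p = 0.04). Of 13 potassium transport genes, 9 were tested, with a median of 0.07. HAK5, the high-affinity potassium transporter induced in roots by potassium shortage, was the 1 lower at an unadjusted p under 0.05. It had 0.134 and 0.45 CPM in myb KNO3 and 0.403, 0.403 and 0 CPM in qko KNO3, against 1.03, 0.531 and 0.403 CPM in myb water and 0.67, 0.717 and 1.08 CPM in qko water. The qko libraries did not overlap, the myb libraries did, and the log2 fold change was -1.36 (SE 0.48, unadjusted p = 0.015, adjusted p = 1).

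The loci nearest the threshold, among those with a mean of at least 1 CPM, came from outside these lists. The lowest p belonged to AT1G66180, an aspartyl protease family gene, with 2.32 and 1.84 CPM in myb KNO3 libraries, against 4.68, 3.81 and 3.67 CPM in myb water libraries. In qko it had 3.58, 3.67 and 3.37 CPM in KNO3, against 9.38, 6.05 and 7.12 CPM in water. Every KNO3 library of a genotype lay below every water library, with a pooled log2 fold change of -1.04 (SE 0.14, 95% interval -1.34 to -0.73, edgeR adjusted p = 0.12). DESeq2 gave it an adjusted p of 3.9e-06, and leaving out 1 library at a time moved the edgeR adjusted p between 0.07 and 0.83. Its level was 0.831 CPM in WT KNO3 and 0.723 CPM in WT water, and 4.27 CPM in cyp KNO3 and 5.02 CPM in cyp water.

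AT5G50760, of the SAUR-like auxin-responsive family, had 4.10 and 3.64 CPM in myb KNO3, against 6.29, 6.68 and 5.41 CPM in myb water. The qko libraries had 5.73, 5.37 and 5.30 CPM in KNO3, against 11.6, 8.20 and 12.2 CPM in water. KNO3 lay below water without overlap in both genotypes (log2 -0.84, SE 0.13, edgeR adjusted p = 0.25, DESeq2 adjusted p = 0.00013). The other 3 loci named among the lower ones were GDPD2, a glycerophosphodiester phosphodiesterase family gene (-0.43, SE 0.10), PAP1 (AT2G01180), a phosphatidic acid phosphatase (-0.55, SE 0.13), and SYTC, a calcium-dependent lipid-binding protein gene (-0.26, SE 0.07). Each of them had no overlap between KNO3 and water in either genotype and an adjusted p of 1.

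In the other direction, AT2G01008, annotated as a maternal effect embryo arrest protein, had 912 and 992 CPM in myb KNO3, against 773, 679 and 716 CPM in myb water. In qko it had 698.5, 738.5 and 678 CPM in KNO3, against 503, 537 and 488 CPM in water. All KNO3 libraries lay above all water libraries of the same genotype, with a log2 fold change of 0.44 (SE 0.08, edgeR adjusted p = 0.58, DESeq2 adjusted p = 1.2e-08). AT2G16660, of the major facilitator superfamily, had 252 and 263 CPM in myb KNO3 and 177, 182 and 138 CPM in qko KNO3, against 203, 192 and 212 CPM in myb water and 132, 136 and 93.8 CPM in qko water (log2 0.41, SE 0.11, adjusted p = 1). Its treatments did not overlap in either genotype. AT3G50050, another aspartyl protease family gene, differed by 0.54 (SE 0.12), AT4G15610 by 0.74 (SE 0.20) and LAF3, an amidohydrolase family gene, by 0.33 (SE 0.09), all at an adjusted p of 1. AT3G50050 overlapped in qko, where its KNO3 replicate 7 had 4.37 CPM and water replicate 6 had 4.48 CPM.

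**Figure D4:**
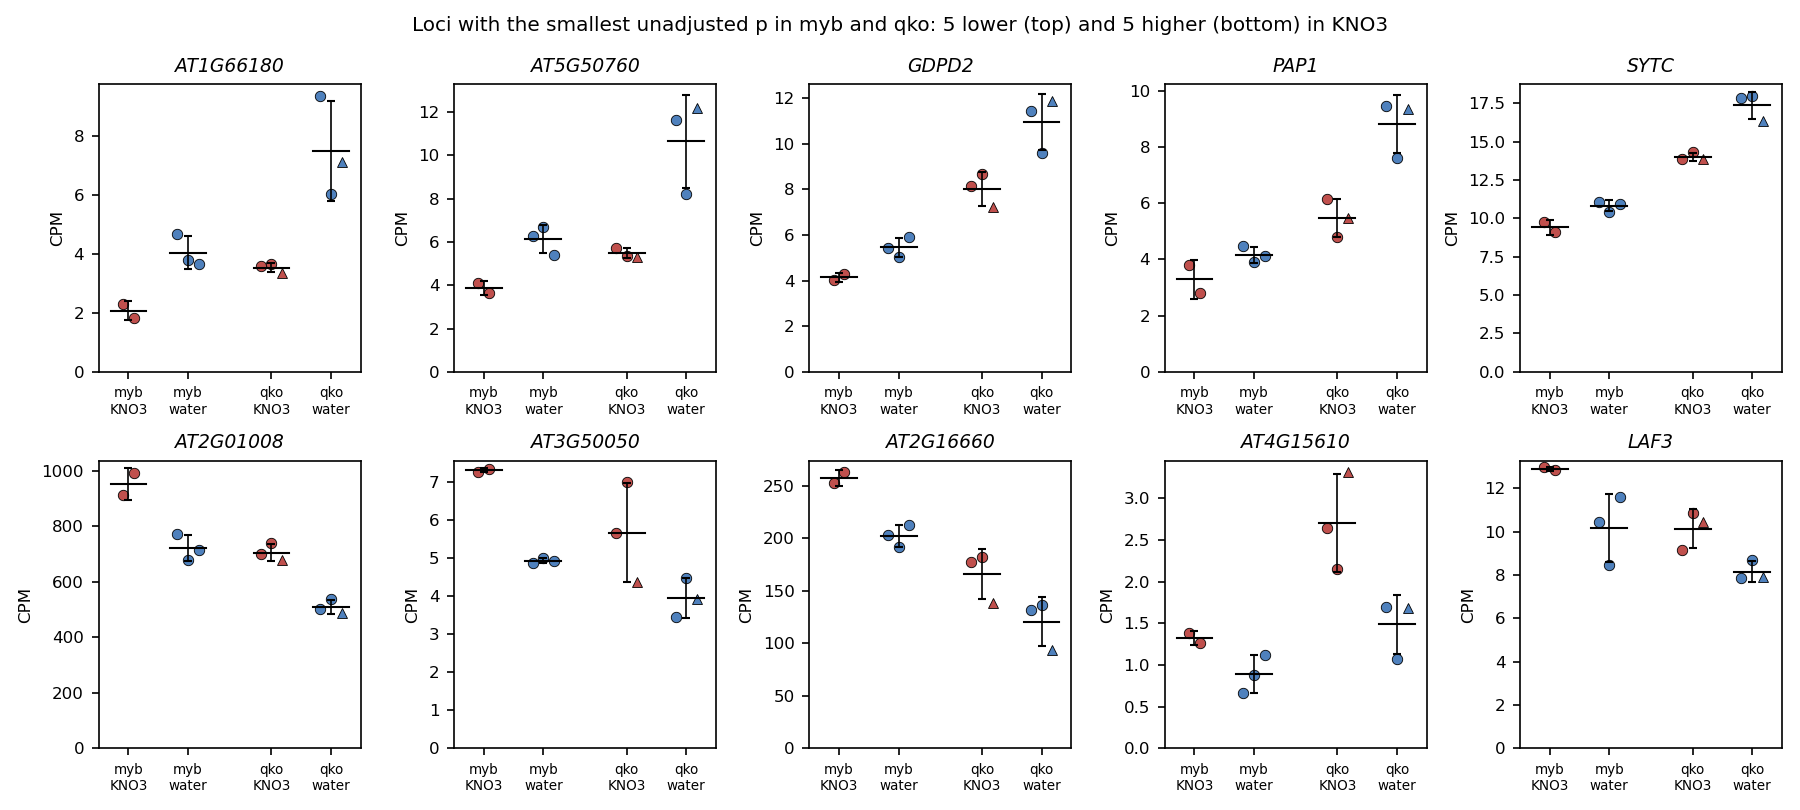
CPM in each KNO3 and water library of myb and qko for the loci with the smallest p in either direction among those with a mean of at least 1 CPM. KNO3 stands left of water, with triangles for qko replicate 7 and bars for the mean ± SD of a group. All but AT3G50050 have no overlap between treatments in either genotype, and none passed the adjusted threshold of edgeR without the block.

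Over all tested loci, 39 (0.232%) were higher and 50 (0.298%) lower in KNO3 without overlap in both genotypes. Among the listed genes these were NPF7.3 and MYB51 higher and SOT18 lower, with NPF7.3 nearly tied between treatments in myb. With so few libraries in a group, some loci separate in this way by the order of the labels alone. Whether these counts exceed that number was not tested, so a lack of overlap describes the values and does not show a response. For loci named for their small p it is no separate result, since it rests on the same values. The responses of the 2 genotypes, which come from separate libraries, had the same sign at 45.5% of loci, and their correlation across loci was 0.01. At 10 to 100 CPM (8124 loci) it was -0.165, and above 100 CPM (1977 loci) -0.256, as a description of loci that share the same libraries within a genotype.

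Each genotype on its own also gave 0 loci past the adjusted threshold of edgeR. In myb, 102 of 16801 loci (0.607%) were at an unadjusted p under 0.05 and DESeq2 called 0. In qko there were 268 (1.6%), and DESeq2 called 4 (0.0238%): NRT2.6, AT2G01008, AT1G66180 and AT5G50760. Both genotypes shared an estimate of spread in these fits. Without both qko libraries numbered 7 the unadjusted count was 666 of 16616 (4.01%) in myb and 391 (2.35%) in qko. The order of the genotypes thus reversed, and these counts do not rank their responses. Same-numbered deviations in qko correlated at 0.338 to 0.562, but those of replicates 4 and 6 also correlated across numbers (0.255 and 0.368). With the replicate number as a block, edgeR called 4 loci in qko (0.0238%). Of these, PP2-A10, a phloem protein family gene, had 5.33, 11.2 and 17.7 CPM in qko KNO3, against 3.08, 5.51 and 8.52 CPM in qko water, in the order of replicates 4, 6 and 7. The treatments overlapped, but each replicate number was higher in KNO3 (blocked log2 0.98, adjusted p = 0.047). AT2G16660 was higher by 0.48 (adjusted p = 0.047). AT3G22910 was lower by -0.80 on the log2 scale (adjusted p = 0.047). AT2G07751 had 3.36, 0 and 9.06 CPM in qko KNO3 and 0 counts in the other 8 libraries. Without both qko libraries numbered 7 the blocked fit called 1 locus, AT5G50665, which had 0 counts in qko KNO3 replicates 4 and 6 but 10.6 CPM in replicate 7 left out, against 7.10 and 6.14 CPM in qko water replicates 4 and 6.

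NRT2.6, a high-affinity nitrate transporter family member, had the largest difference in response between the genotypes among the nitrate genes tested. The qko libraries had 3.27, 2.82 and 4.70 CPM in KNO3, against 0.894, 1.48 and 1.5 CPM in water. In myb it had 6.91 and 8.14 CPM in KNO3, against 7.98, 6.06 and 6.75 CPM in water. KNO3 lay above water without overlap in qko (log2 1.48, SE 0.25, edgeR adjusted p = 1, DESeq2 adjusted p = 0.00081, blocked adjusted p = 0.065) and overlapped in myb (0.10). The difference between the responses, qko minus myb, was 1.39 (unadjusted p = 0.0021, edgeR adjusted p = 1), and 0 of 16801 loci passed that test (127 or 0.756% at an unadjusted p under 0.05, DESeq2 0).

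The response of myb and qko was then set against that of the other genotypes, in 1 fit over the 23 KNO3 and water libraries of the 4 genotypes. Relative to cyp, 2 of 17532 loci (0.0114%) passed, RFNR1 and UPM1, both lower in response in myb and qko. DESeq2 called 30 (0.171%), and 1174 (6.7%) were at an unadjusted p under 0.05. RFNR1 had 631, 780.1 and 817 CPM in cyp KNO3 libraries and 334, 425 and 337 CPM in cyp water libraries, beside the myb and qko values given above. The cyp treatments did not overlap, and the response of myb and qko was smaller by -1.07 on the log2 scale (SE 0.16, edgeR adjusted p = 0.023). UPM1 had 243, 299 and 318 CPM in cyp KNO3 and 160.3, 172 and 152 CPM in cyp water, a difference in response of -0.89 (SE 0.14, edgeR adjusted p = 0.023). Both calls were lost when 1 of 10 libraries was left out: cyp water replicate 7 or 9, cyp KNO3 replicate 7 or 8, myb water replicate 6 or 7, myb KNO3 replicate 6 or 9, or qko water replicate 4 or 6. They held in 7 of the 17 fits that left out 1 library, and the differences stayed between -1.19 and -0.96 for RFNR1 and between -1.0 and -0.77 for UPM1. Without both qko libraries numbered 7, 4 loci passed (0.023%): RFNR1, UPM1, PGM and AT1G69760.

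Other genes of nitrate reduction had differences from cyp that did not pass with all libraries. At an unadjusted p under 0.05, 14 of the 24 listed genes (58.3%) responded less in myb and qko than in cyp and 0 more, against 3.42% of all tested loci lower and 3.27% higher, and the list median was -0.85 against 0.01 over all tested loci. NIR1 averaged 1397 ± 682 CPM in cyp KNO3 and 405 ± 166 CPM in cyp water (SD, n = 3 each), and its difference in response was -1.81 (unadjusted p = 0.00064, adjusted p = 0.33). NIA1 averaged 877 ± 388 CPM in cyp KNO3 and 267 ± 124 CPM in cyp water, with a difference of -1.58 (unadjusted p = 0.0028, adjusted p = 0.46). LBD37 averaged 15.6 CPM in cyp KNO3 and 5.7 CPM in cyp water, with a difference of -1.19 (unadjusted p = 0.0006, adjusted p = 0.32). HB1, a hemoglobin that removes nitric oxide, differed by -1.53 and PGM, annotated as a phosphoglycerate mutase, by -1.12. Without cyp KNO3 replicate 6 the edgeR adjusted p was 0.016 for NIR1, 0.047 for NIA1 and 0.032 for CYP707A2. That fit called 294 of 17511 loci, 145 with a higher and 149 with a lower response in myb and qko, so its calls were not particular to nitrate genes. All 3 genes missed the threshold in the other 16 fits without 1 library. CYP707A2 averaged 338 CPM in cyp KNO3 and 116 CPM in cyp water, against which the response of myb and qko was smaller by -1.48 (unadjusted p = 0.0035).

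Other gene groups moved with the nitrate genes across the cyp libraries. In the order of replicates 6, 7 and 8, NIR1 had 739.9, 1351 and 2101 CPM in cyp KNO3. The summed storage protein and oil body genes had 21313, 26803 and 37346 CPM in the same order, against 22920, 30441 and 19776 CPM in cyp water replicates 7, 8 and 9. The summed cytosolic ribosomal protein genes had 11562, 9092 and 6729 CPM in cyp KNO3, against 11870, 9491 and 12268 CPM in cyp water. The summed photosynthesis genes had 238, 147 and 85.0 CPM in cyp KNO3, against 239, 165 and 258 CPM in cyp water. Replicate 8 of cyp KNO3 was thus the highest in NIR1 and storage genes and the lowest in ribosomal and photosynthesis genes. The part of these groups in the differences from cyp was not tested. Over the fits without 1 library, the difference of NIR1 ran from -2.195 to -1.36 and that of NIA1 from -2.04 to -1.16, and without cyp KNO3 replicate 8 the adjusted p of both was 1.

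Relative to WT, 0 of 17532 loci passed, with 277 (1.58%) at an unadjusted p under 0.05 and 0 called by DESeq2. This comparison uses the same myb and qko libraries as the one with cyp. UPM1 averaged 231 ± 12.8 CPM in WT KNO3 and 164 ± 7.66 CPM in WT water (SD, n = 3 each), and the response of myb and qko differed from it by -0.51 (SE 0.14, unadjusted p = 0.0013, adjusted p = 1). RFNR1 averaged 269 ± 23 CPM in WT KNO3 and 185 ± 6.51 CPM in WT water, with a difference of -0.54 (SE 0.16, unadjusted p = 0.0029, adjusted p = 1). NIR1 averaged 897 ± 316 CPM in WT KNO3 and 569.6 ± 124 CPM in WT water, with overlapping libraries and a difference of -0.63 (unadjusted p = 0.17). Of the 24 nitrate reduction genes, 4 were lower at an unadjusted p under 0.05 (16.7% against 0.901% of all tested loci), UPM1, RFNR1, PGM and HB1, and the list median was -0.25. The positive difference from WT with the smallest p was that of AT3G05390, a methyltransferase family gene that did not pass the KNO3 test in myb and qko (pooled log2 -0.03). It averaged 10.3 CPM in myb KNO3, 9.91 CPM in myb water, 15.3 CPM in qko KNO3 and 16.3 CPM in qko water, beside low WT levels of 0.0598 CPM in KNO3 and 0.369 CPM in water (difference 2.5, SE 0.58, adjusted p = 1).

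The KNO3 libraries were also set against the KSCN libraries of the same genotypes (3 of myb and 3 of qko), a comparison that shares its KNO3 libraries with KNO3 against water. Here 1 of 16777 loci (0.00596%) passed, AT1G66180, which was lower in KNO3 (log2 -1.23, SE 0.13, edgeR adjusted p = 0.011). It averaged 2.08 CPM in myb KNO3 and 3.54 CPM in qko KNO3, against 4.06 CPM in myb KSCN and 9.05 CPM in qko KSCN. The call held in 8 of the 11 fits that left out 1 library, and was lost without myb KNO3 replicate 9, qko KNO3 replicate 6 or myb KSCN replicate 7. For AT5G50760 the difference was -0.75 (adjusted p = 0.15), for GDPD2 -0.50 and for PAP1 -0.56 (adjusted p = 0.14 each), and for AT2G01008 0.15 (adjusted p = 0.65). UPM1 differed by -0.02, RFNR1 by 0.05, NIR1 by 0.10 and NIA1 by 0.09, with unadjusted p of 0.43 to 0.75, and the nitrate reduction list had a median of 0.05. The number of calls in this comparison depended on the fit. At an unadjusted p under 0.05 there were 1602 loci (9.55%), and DESeq2 called 241 (1.44%). Without both qko libraries numbered 7 edgeR called 676 of 16561 (4.08%), of which 414 were higher and 262 lower in KNO3. Leaving out only qko KNO3 replicate 7 or only qko KSCN replicate 7 gave 1 call each. With both kept, the replicate block called 1499. The cause was not tested.

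No gene of dormancy or germination passed the test between KNO3 and water. Of 23 abscisic acid and dormancy genes, 22 were tested with a median of -0.01, 0 passed, and 19 intervals lay within 1.5-fold. CYP707A2 had 59.9 and 67.1 CPM in myb KNO3 and 61.6, 66.2 and 45.2 CPM in qko KNO3, against 70.4, 61.1 and 56.8 CPM in myb water and 50.5, 51.5 and 44.6 CPM in qko water. The treatments overlapped in both genotypes, with a log2 fold change of 0.14 (-0.11 to 0.38). CYP707A3, a related abscisic acid hydroxylase, was the 1 listed gene lower at an unadjusted p under 0.05 (log2 -0.21, unadjusted p = 0.032). DOG1, the dormancy regulator, had 4.10 and 3.82 CPM in myb KNO3 and 4.84, 4.88 and 6.36 CPM in qko KNO3, against 4.01, 3.81 and 3.44 CPM in myb water and 5.5, 5.46 and 7.77 CPM in qko water (log2 -0.10, -0.39 to 0.19). Of 26 gibberellin genes, 22 were tested and 0 were at an unadjusted p under 0.05, and the smallest p was that of PIL5, a phytochrome-interacting repressor of germination (-0.14).

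No sulfur or glucosinolate gene passed the adjusted threshold. In the unblocked fit the glucosinolate lists held a larger share at an unadjusted p under 0.05 than all tested loci did, on few genes. Of 28 sulfur genes, 23 were tested with a median of 0.00, and SERAT2;1, a serine acetyltransferase of cysteine synthesis, was the 1 lower at an unadjusted p under 0.05. It averaged 22.5 CPM in myb KNO3 and 58.1 CPM in qko KNO3, against 29.6 CPM in myb water and 71.6 CPM in qko water (log2 -0.35, unadjusted p = 0.018, adjusted p = 1). Of 34 glucosinolate synthesis genes, 17 were tested. At an unadjusted p under 0.05, 2 (11.8%) were higher and 1 (5.88%) lower, against 0.661% higher and 1.04% lower over all tested loci. With the replicate block 1 of the 17 was at an unadjusted p under 0.05, against 3.9% of all tested loci, so the excess of this list depended on the fit. MYB51, an activator of indolic glucosinolate genes, had 1.56 and 1.84 CPM in myb KNO3 and 1.70, 1.75 and 1.71 CPM in qko KNO3, against 0.981, 1.2 and 1.48 CPM in myb water and 1.3, 1.43 and 1.59 CPM in qko water. The treatments did not overlap in either genotype (log2 0.36, unadjusted p = 0.035, adjusted p = 1). CYP81F2, which modifies indolic glucosinolates, was higher by 0.28 (unadjusted p = 0.023) and SOT18, a sulfotransferase that shares reads with its near copies, lower by -0.43 (unadjusted p = 0.016), neither past the adjusted threshold. Among 13 breakdown and transport genes, 7 were tested (14.3% higher and 14.3% lower, 1 gene each), the transporter GTR1 was higher by 0.26 (unadjusted p = 0.036), and the myrosinase TGG1, which was close to 0 in qko, was lower by -1.28 (unadjusted p = 0.023). With the replicate block 2 of these 7 were at an unadjusted p under 0.05.

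All 15 cytosolic ribosomal protein genes and all 11 ribosome biogenesis genes had pooled intervals within 1.5-fold, with medians of 0.02 and 0.03. The ribosomal protein genes differed in opposite directions in the genotypes, none past the threshold. In myb all 15 were below 0 (median -0.13), and in qko all 15 were above 0 (median 0.14). Without both qko libraries numbered 7 the pooled median was -0.08 with 0 of 15 above 0, and the qko median was -0.03 with 6 of 15 above 0. The biogenesis genes had medians of -0.03 in myb and 0.05 in qko, and their pooled median was -0.02 without those libraries. All 13 circadian clock genes also lay within 1.5-fold (median 0.05). Of 12 storage protein and oil body genes 10 lay within 1.5-fold, and of 11 lipid mobilisation genes 10. Of 9 late embryogenesis and heat shock genes 6 lay within 1.5-fold, with a median of -0.05, and HSP101 had the smallest p (-0.20, unadjusted p = 0.32). The 15 cell wall loosening genes varied more, with 7 intervals within 1.5-fold and 0 at an unadjusted p under 0.05. EXPA2, an endosperm expansin, averaged 104 CPM in myb KNO3 and 116 CPM in qko KNO3, against 131 CPM in myb water and 90.5 CPM in qko water. Of the 14 cytokinin and glutaredoxin genes, only ARR4 had enough counts to be tested (-0.13, unadjusted p = 0.31). The 8 tested jasmonate genes had a median of 0.02 and none was at an unadjusted p under 0.05.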

How the data were processed

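RNA of entire seeds was sequenced as paired reads of 100 bases, per the labels' protocols. The authors deposited estimated counts (expected counts) per transcript, made with Salmon per the submitters' processing notes. Its release, index and build (not given in the sources used here) bear on how reads of similar genes were split. The counts were summed per locus (27587 loci) and rounded. Near-identical copies such as SOT17 and SOT18 share reads, so their split is uncertain. A filter on low counts within groups (filterByExpr, count of 10, total of 15) took out 10786 of them, and libraries were scaled by TMM. Tests were edgeR 4.0.16 quasi-likelihood F tests in R 4.3.3, with Benjamini-Hochberg adjustment over all tested loci of a comparison at 0.05. DESeq2 1.42.0 was an alternative. The steps were tested on simulated data.

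SE and 95% intervals of log2 fold changes derive from the F statistic. CPM is a count per 1000000 counts of its library, and its SD is the spread between libraries. The compared libraries, the 22 gene lists (366 genes, 281 tested) and the tests were chosen with earlier results of these data known. The rule for named genes took 13 set genes, the genes of a list that passed or else its gene of smallest p, the 5 loci of smallest p in each direction with a mean of at least 1 CPM, and those leading the differences between genotypes. Other genes named were chosen after their values were seen. Gene names come from a RefSeq gene table, and no coordinates or sequences are given.

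Replicate numbers of the labels were tested as pairs of KNO3 and water libraries by the correlation of deviations from the group means, with over 0.1 in every pair needed. They were 0.367, 0.338 and 0.562 in qko, which counted as paired, and -0.078 and 0.061 in myb, which did not. In qko, KNO3 replicate 6 with water replicate 4 gave 0.368, and KNO3 replicate 4 with water replicate 6 gave 0.255. The rule thus matched replicate 7 but did not tell replicates 4 and 6 apart. In cyp the same-numbered values were 0.089 and 0.496, which did not count as paired either. Other alternatives were other scalings, no filter, a robust fit, all 45 libraries in the fit, and leaving out libraries.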

Additional observations from a re-analysis of the deposited data

Results flagged for a closer look

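A pair of genes passed a test of the difference in KNO3 response between genotypes when all libraries were used. Both calls were lost in most fits that left out a single library, such as cyp water replicate 7 or cyp KNO3 replicate 8. RFNR1 (AT4G05390) responded less in myb and qko than in cyp, by -1.07 on the log2 scale (SE 0.16, edgeR adjusted p = 0.023), and UPM1 (AT5G40850) by -0.89 (SE 0.14, edgeR adjusted p = 0.023). RFNR1 averaged 252 CPM in myb KNO3, 231 CPM in qko KNO3 and 743 CPM in cyp KNO3, against 262 CPM in myb water, 219 CPM in qko water and 365 CPM in cyp water. UPM1 averaged 197 CPM in myb KNO3, 211 CPM in qko KNO3 and 287 CPM in cyp KNO3, against 195.0 CPM in myb water, 213 CPM in qko water and 162 CPM in cyp water. The cyp levels of RFNR1 in water were above those of myb and qko, and those of UPM1 below.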

How the results depend on the processing

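The pooled KNO3 against water comparison called 0 loci, 0 in each of the 11 fits without 1 library, and 0 under the other scalings, without a filter and with a robust fit. DESeq2 called 3, all 45 libraries in the fit 1, the replicate block 7 (also 7 without qko replicate 7), and a block within qko alone, chosen after seeing the data, 5. The block called 1 locus in myb (1 without qko replicate 7), 4 in qko (1 without qko replicate 7) and 1 for qko minus myb (1). It called 1 for the difference from WT (0) and 1499 for KNO3 against KSCN (800). For the difference from cyp it called 2069, or 11.8% of the 17532 tested loci, and 2434 without qko replicate 7. Among the 2069 were 16 of the 24 nitrate reduction genes. By the rule above the numbers counted as paired in qko, where replicates 4 and 6 were not told apart, but not in myb. In cyp the same-numbered correlations were 0.089 for replicate 7 and 0.496 for replicate 8, short of the 0.1 needed in every pair. Replicate 6 of cyp KNO3 and replicate 9 of cyp water had no partner, so the blocked counts from cyp rest on weak pairing. Why the blocked counts were higher was not tested. Without qko replicate 7 alone, qko gave 1, qko minus myb 1, the difference from cyp 4, and KNO3 against KSCN 676. DESeq2 called 4 in qko, 30 for the difference from cyp and 241 for KNO3 against KSCN, and all 45 libraries in the fit gave 54 and 7 for these last comparisons. KNO3 against KSCN gave 2 with library totals only and 2 without a filter. Leaving out 1 library gave 0 to 1 in qko and in qko minus myb (1 without qko KNO3 replicate 7), 0 to 294 for the difference from cyp (294 without cyp KNO3 replicate 6, 9 without cyp water replicate 8), and 0 to 2 for KNO3 against KSCN. Of 142 alternatives for counts, 97 kept the count within 1.5 times, and of 938 for single genes 862 kept direction and call, and the cause of the others was not tested. Pooled log2 values near 0 changed sign in 40 of these. Without both qko libraries numbered 7, UPM1 was 0.001 (0.004 with the block), NIR1 -0.006, NPF6.3 0.024 (0.006), NLP8 0.014, CYP79B3 0.015, AT3G09630 -0.004, EXPA2 -0.23 (-0.094) and RFNR1 -0.003, and NIA2 was 0.021 with the block (0.053 with both). Without 1 library, UPM1 was -0.03 to 0.027, NIR1 -0.098 to 0.172, NPF6.3 -0.174 to 0.082, NLP8 -0.065 to 0.067, CYP79B3 -0.29 to 0.022, AT3G09630 -0.013 to 0.111, EXPA2 -0.132 to 0.202, RFNR1 -0.007 to 0.055, NIA2 -0.243 to 0.175, AT3G05390 -0.088 to 0.023, AT3G15460 -0.095 to 0.014, DOG1 -0.155 to 0.018 and ACX2 -0.012 to 0.173. Depth left 65 of the 81 nitrate genes with enough counts for a test.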

Other observations

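The 5 loci named as lower in KNO3 with the smallest p had water levels in the order qko, myb, WT, an order that 27.6% of the 16801 tested loci share. AT1G66180 averaged 7.51 CPM in qko water, 4.05 CPM in myb water and 0.723 CPM in WT water. AT5G50760 averaged 10.7 CPM in qko water, 6.13 CPM in myb water and 0.532 CPM in WT water. GDPD2 averaged 11 CPM in qko water, 5.46 CPM in myb water and 2.61 CPM in WT water, and PAP1 (AT2G01180) 8.82, 4.16 and 1.11 CPM in the same groups. SYTC averaged 17.39, 10.8 and 8.16 CPM in these groups. In cyp water AT1G66180 averaged 5.02 CPM, above myb, while AT5G50760 averaged 0.764 CPM, GDPD2 9.35 CPM, PAP1 1.57 CPM and SYTC 7.40 CPM. These levels were looked at after the loci had been chosen for their KNO3 against water p, and no test was made of the pattern. That choice used the same myb and qko water libraries and favoured high values in them, so the order is no separate result.

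GDH2, a glutamate dehydrogenase, averaged 614 ± 3.58 CPM in myb KNO3 (SD, n = 2) and 897 ± 79.4 CPM in qko KNO3, against 657 ± 78.6 CPM in myb water and 1071 ± 40.3 CPM in qko water (SD, n = 3 each), beside 103 ± 19.2 CPM in WT water. NPF7.2, a nitrate transporter, averaged 436 CPM in myb KNO3 and 493 CPM in qko KNO3, against 350 CPM in myb water and 459 CPM in qko water, beside 36.5 CPM in cyp water and 371 CPM in WT water.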
